A study of Mus musculus with 3 samples.

Results

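The progenitor fibroblast markers described here are 7 mouse genes, Pi16, Dpp4, Ly6a, Ly6c1, Sema3c, Cd248 and Anxa3, taken by name from a table of 56833 genes. They were followed in cells from ankle synovium, the tissue that lines the joint, of Efhd1CreER; Ai9 mice. In these mice a tamoxifen-dependent Cre recombinase driven by Efhd1 switches on the red reporter tdTomato, and the reporter-positive cells, which the labels call telocytes, were sorted and cultured for 24 h. Every library carries that genotype, reporter and sort. The libraries differ in the stiffness of the collagen-coated plate, which was 0.2 kPa (soft), 8 kPa (intermediate) or 64 kPa (stiff). Only 1 library per level was analysed. Differences are therefore given without a replicate check or a p-value, and a difference between cultures cannot be told apart from one between stiffness levels. The series title puts the question as whether matrix stiffness regulates the differentiation of telocytes into fibroblasts.

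Fibroblasts that express Pi16 and Dpp4 lie in the adventitia and interstitium of many mouse tissues. They are regarded as a reserve state from which more specialised fibroblasts and, in fat, preadipocytes can arise. Ly6a (Sca-1) and Ly6c1 are small glycoproteins held on the membrane by a lipid anchor and are widely used to sort such cells, although endothelial cells express them too. Dpp4 (CD26) is a membrane peptidase and Cd248 (endosialin) a membrane protein with a C-type lectin domain. Pi16 is a glycoprotein with a CAP domain, Sema3c a secreted guidance protein that signals through neuropilins and plexins, and Anxa3 a cytosolic protein that binds phospholipids in the presence of calcium.

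Recovered totals were 25487064 reads on soft, 28081600 on intermediate and 26474862 on stiff plates. Values are given as the deposited normalized counts, in which 1 read was worth between 0.943 and 1.03. All 8 fibroblast markers examined, among them Col1a1, Dcn and Pdgfra, had a mean of at least 50 normalized counts over the 3 libraries. So did 6 of 10 telocyte markers, a list that also holds Pdgfra, so these counts do not tell the cell types apart. Efhd1 itself had only 10 reads on soft, 5 on intermediate and 3 on stiff plates. Markers of macrophages, which digest debris in the synovium, were present too. All 12 of them passed that level, and their summed level was 28901 normalized counts on soft, 35688 on intermediate and 62562 on stiff plates. In bulk RNA, fewer cells of a type and less RNA per cell cannot be told apart.

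Ly6a and Ly6c1 lie in a cluster of related genes on chromosome 15, and the start of the coding sequences is shown because reads from such genes can be hard to assign. Bases 1 to 150 were read from the canonical transcripts of the GENCODE vM39 annotation of GRCm39. Ly6c1 (chromosome 15, 74915847 to 74920686, minus strand, 3 exons) and its neighbour Ly6c2 (74980003 to 74988467, minus strand, 4 exons) both have 396 coding bases, of which 387, or 97.7%, are identical. Capitals mark the bases at which Ly6c1 and Ly6c2 differ, and in Ly6a (74863840 to 74869880, minus strand, 3 exons) the bases that differ from Ly6c1.
Ly6c1: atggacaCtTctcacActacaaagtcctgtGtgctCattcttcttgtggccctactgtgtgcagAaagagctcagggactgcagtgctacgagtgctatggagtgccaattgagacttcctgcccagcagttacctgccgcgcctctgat
Ly6c2: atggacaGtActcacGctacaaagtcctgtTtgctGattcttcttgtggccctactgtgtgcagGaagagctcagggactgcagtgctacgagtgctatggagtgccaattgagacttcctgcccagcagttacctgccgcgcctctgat
Ly6a: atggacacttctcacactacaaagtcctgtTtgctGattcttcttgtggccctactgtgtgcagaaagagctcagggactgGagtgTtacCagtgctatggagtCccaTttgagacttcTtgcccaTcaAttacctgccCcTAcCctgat

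Of the 9 differences between Ly6c1 and Ly6c2 over the whole coding sequence, 6 lie in the stretch shown, and the longest run without one is 188 bases. Ly6a has 14 marked bases in the same stretch, and its whole coding sequence of 405 bases is 82.0% identical to that of Ly6c1. The table assigned every read of the close pair to Ly6c1, with 2236 reads on soft, 2322 on intermediate and 2553 on stiff plates, and none to Ly6c2. Of the windows of 50 bases in the canonical Ly6c1 transcript, 37.5% occur without a mismatch in a transcript of another gene, namely Ly6a, Ly6c2 or Ly6i. For Ly6a the share is 13.3%. How reads that match several genes were counted is not given in the sources used here. In this respect the levels of Ly6a and Ly6c1 are less certain than those of Sema3c, Cd248 and Anxa3, which share no such window. Dpp4 shares none either, but its level rests on only 1, 0 and 2 reads. Pi16 shares 1.87% of its windows.

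Levels of different genes were compared as reads per kilobase of the canonical transcript and per 1000000 reads of the library. On this scale the order was the same in every library. Ly6a stood highest, with 181 on soft, 207 on intermediate and 204 on stiff plates. Anxa3 followed with 89.9, 85.5 and 157. Ly6c1 had 80.6, 76.0 and 88.6, and Cd248 had 57.0, 71.5 and 83.6. On intermediate plates the counting intervals of Ly6c1 and Cd248 overlapped (72.9 to 79.2 and 69.6 to 73.4). They overlapped on stiff plates too (85.2 to 92.1 and 81.4 to 85.8), and were apart on soft plates. Overlap of separate intervals does not by itself leave an order unresolved. The intervals of the other neighbours in the order did not overlap. Sema3c stood lower, at 24.2, 24.4 and 28.3. Pi16, the gene after which the progenitor state is named, had only 1.41, 1.36 and 1.85, and 12.5% of the genes with a mean of at least 50 had a lower level, against 97.3% for Ly6a. Lengths differ between annotated isoforms: with its longest coding transcript the mean level of Ly6c1 would be 31.6 in place of 81.8, below the 70.7 of Cd248.

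Dpp4 (chromosome 2, 62159798 to 62242576, minus strand, 26 exons), the peptidase whose name is given to these progenitors together with Pi16, was close to absent. It had 1 read on soft, 0 on intermediate and 2 on stiff plates. A library without a read may still hold the transcript at up to 3 reads, or 2.83 normalized counts on intermediate plates, and the two-sided Poisson interval drawn for that library ends at 3.48. For this reason no fold is given for it and a difference was not detectable at this depth. The other 6 genes had means between 211 (Pi16) and 19484 (Ly6a) normalized counts. The plot of levels by stiffness shows the markers in the library of each level.

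**Figure D1:**
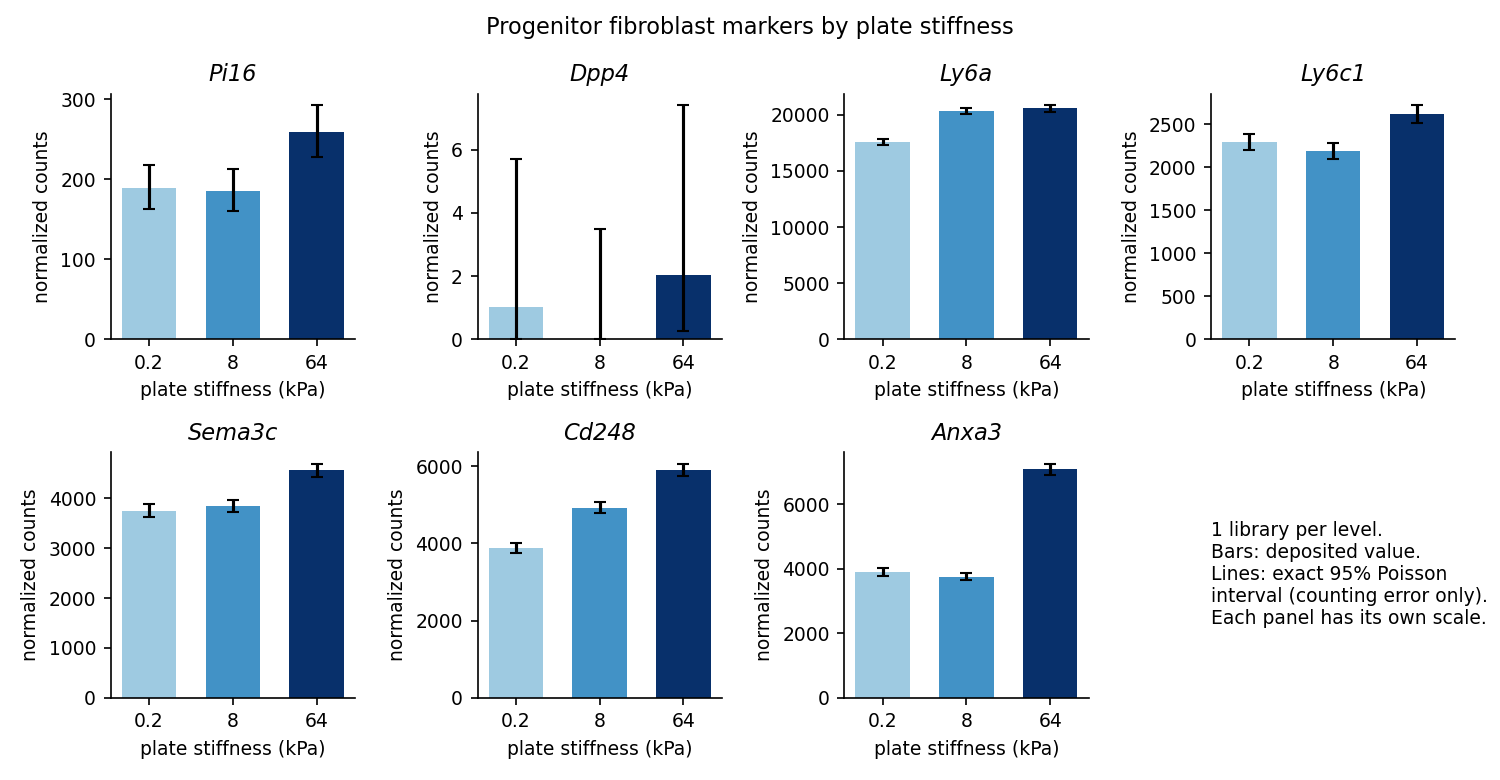
Normalized counts (vertical axes, each panel on its own scale from 0) of the 7 markers against plate stiffness in kPa, as bars for 1 library per level with exact 95% Poisson intervals that cover counting error only. Anxa3 stands apart at 64 kPa, Cd248 is higher at each level, Ly6a differs between 0.2 and 8 kPa, and the Dpp4 bars rest on 1, 0 and 2 reads.

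Differences were expressed as log2 ratios of normalized counts with a pseudocount of 1, with exact 95% Clopper-Pearson intervals of the ratio of reads, which cover counting error only. Only those averaging at least 50 normalized counts were compared, which left 11873 genes and 6 of the 7 markers. Between stiff and soft plates 0 of the 6 reached a log2 ratio of 1 in size, against 3.6% of all genes compared. At a log2 ratio of 0.5 in size, 2 of the 6 passed, Anxa3 and Cd248, both higher on stiff plates, against 15.6% of all genes in either direction and 11.8% in the higher direction. All 6 had a ratio above 0, as did 51.1% of all genes. The median of the 6 was 0.37, beside 0.0049 for all genes compared, and their ratios ran from 0.19 (Ly6c1) to 0.86 (Anxa3). The 8 general fibroblast markers had a median of 0.27, with 5 higher and 3 lower, and 10 housekeeping genes a median of 0.14, with 7 higher and 3 lower (6 and 4 with scaling by total reads or the upper quartile).

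Anxa3 (chromosome 5, 96940544 to 96993828, plus strand, 13 exons) differed most. It had 3898 normalized counts on soft, 3755 on intermediate and 7082 on stiff plates. The stiff library thus stood alone, and the intervals of the soft and intermediate libraries overlapped. The stiff to soft log2 ratio was 0.86 (interval 0.80 to 0.92), a fold of 1.82, and 4.62% of the genes compared had a higher ratio. Between stiff and intermediate it was 0.92 (0.86 to 0.97), and 1.16% of genes had a higher one. Anxa3 is also known from neutrophils. The neutrophil genes Ly6g, S100a9, Cxcr2, Retnlg and Ngp had no read in any library, while S100a8 had 210 reads on soft, 220 on intermediate and 197 on stiff plates. The summed level of the 10 monocyte and neutrophil markers, most of it from S100a8, was 229 normalized counts on soft, 214 on intermediate and 206 on stiff plates. The macrophage markers had a summed level 2.16-fold higher on stiff than on soft plates and 1.23-fold higher on intermediate than on soft plates. Each of the 12 was higher on stiff than on soft plates, as all 6 progenitor markers compared were. Their part in these results was not tested.

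Cd248 (chromosome 19, 5118106 to 5120710, plus strand, 1 exon) differed over both steps. It had 3882 normalized counts on soft, 4929 on intermediate and 5911 on stiff plates, and no interval overlapped another. Its log2 ratio was 0.61 (0.55 to 0.67) between stiff and soft, 0.34 (0.28 to 0.41) between intermediate and soft, and 0.26 (0.21 to 0.32) between stiff and intermediate. The Cd248 transcript has a GC content of 61.3%. With the trend of all genes with transcript length and GC content subtracted, its stiff to soft ratio was 0.47, under the 0.5 used here. Endosialin is also found on pericytes. Among 8 mural cell markers Cspg4 was the most abundant, with a stiff to soft ratio of 0.53, while Rgs5 (-0.08), Notch3 (-0.05) and Cox4i2 (-0.14) were below 0. Between intermediate and soft plates Cspg4 had 0.60 and Rgs5 -0.62. The summed level of all 8, of which Higd1b had no read, was 2458 on soft, 3334 on intermediate and 3142 on stiff plates. The part of mural cells in the result was not tested.

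Pi16 (chromosome 17, 29536654 to 29549567, plus strand, 7 exons) was the least abundant marker that could be compared. It had 189 normalized counts on soft, 185 on intermediate and 258 on stiff plates. Its stiff to soft ratio was 0.45, with a wide interval of 0.17 to 0.74, and 0.27 with the trend of length and GC content subtracted. The intermediate and soft libraries could not be told apart, at -0.03 (-0.33 to 0.27).

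Sema3c and Ly6c1 had smaller ratios than Pi16 as deposited, but their intervals overlapped that of Pi16 (0.17 to 0.74). With the trend of length and GC content subtracted they had 0.38 and 0.30, beside 0.27 for Pi16, and were below Cd248 and Anxa3. The order relative to Pi16 thus depended on the processing. Sema3c (chromosome 5, 17779219 to 17935648, plus strand, 18 exons) had 3756 normalized counts on soft, 3839 on intermediate and 4560.4 on stiff plates. Its stiff to soft ratio was 0.28 (0.22 to 0.34), and 21.7% of genes had a higher one. Ly6c1 had 2292, 2189 and 2618 normalized counts, with a stiff to soft ratio of 0.19 (0.11 to 0.27), and 28.3% of genes had a higher one. In both genes the stiff library was the highest and the intervals of the soft and intermediate libraries overlapped.

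Ly6a followed another course. It had 17566 normalized counts on soft, 20331 on intermediate and 20556 on stiff plates, so that the soft library was low and the others lay together. The ratio was 0.21 (0.18 to 0.24) between intermediate and soft, and 0.02 (-0.01 to 0.04) between stiff and intermediate. The sign of the latter was the opposite when libraries were scaled by total reads (-0.02) or by the upper quartile. Endothelial cells express both Ly6a and Ly6c1. The summed level of 10 endothelial markers was 140.5 on soft, 169.7 on intermediate and 371 on stiff plates, in normalized counts, most of it from Esam, while Cldn5 had no read, Pecam1 had 12, 13 and 4 reads, and Cdh5 had 5, 3 and 0. Their part in the result was not tested.

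**Figure D2:**
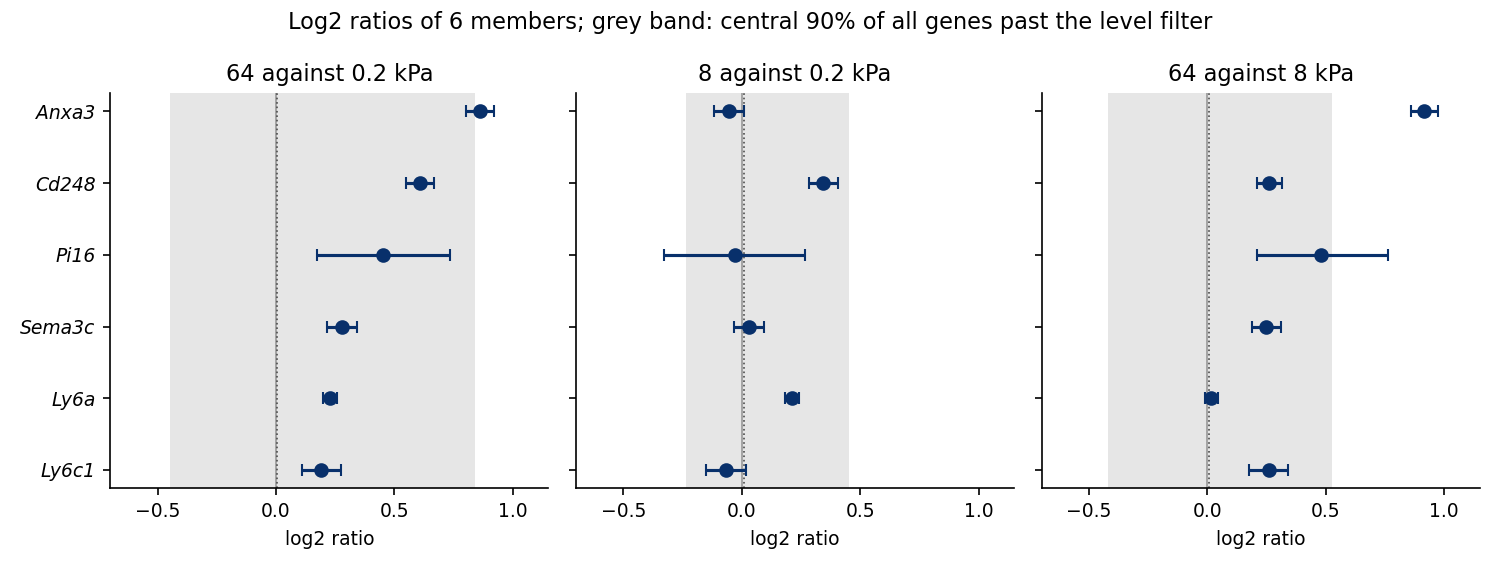
Log2 ratios (horizontal axes) of 6 markers in the 3 comparisons of plate stiffness, as points with exact 95% counting intervals, over the central 90% of the 11873 genes compared (grey band) and their median (dotted line). Anxa3 lies outside the band between 64 and 0.2 kPa (0.86) and between 64 and 8 kPa (0.92), and all points lie inside it between 8 and 0.2 kPa.

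The steps were then compared. Between intermediate and soft plates 0 of the 6 markers reached 0.5 in size, against 4.6% of all genes, and 0 reached 1, against 0.168%. Of the 6, 3 had a ratio above 0, as did 53.5% of all genes, and 3 below it, with a median of 0.00080, beside 0.012 for all genes. Only the intervals of Cd248 and Ly6a, which cover counting error alone, left out 0. Between stiff and intermediate plates 1 of the 6, Anxa3, passed 0.5, against 8.84% of all genes and 5.42% in the higher direction, and 0 passed 1, against 1.25%. There all 6 ratios were above 0 as deposited (5 of 6 under the scalings that turn Ly6a), beside 51.1% of all genes. The median of the 6 was 0.26, beside 0.0061 for all genes, and the interval of Ly6a alone held 0. The share of all genes whose interval leaves out 0 is not given here. In both steps, therefore, the intervals describe single genes and are not a result about the markers as a group.

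Pi16, Ly6c1, Sema3c and Anxa3 thus had their whole difference, or 88.8% of it in Sema3c, between 8 and 64 kPa. Ly6a had 0.21 of its 0.23 between 0.2 and 8 kPa, and Cd248 had 56.8% of its log2 difference there. The comparisons share libraries, the intermediate one entering both steps, so the steps are not independent of each other. The closest pair in the plane of the 2 steps was Ly6c1 and Sema3c, at a distance of 0.098 on the log2 scale, and the farthest Ly6a and Anxa3, at 0.94.

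**Figure D3:**
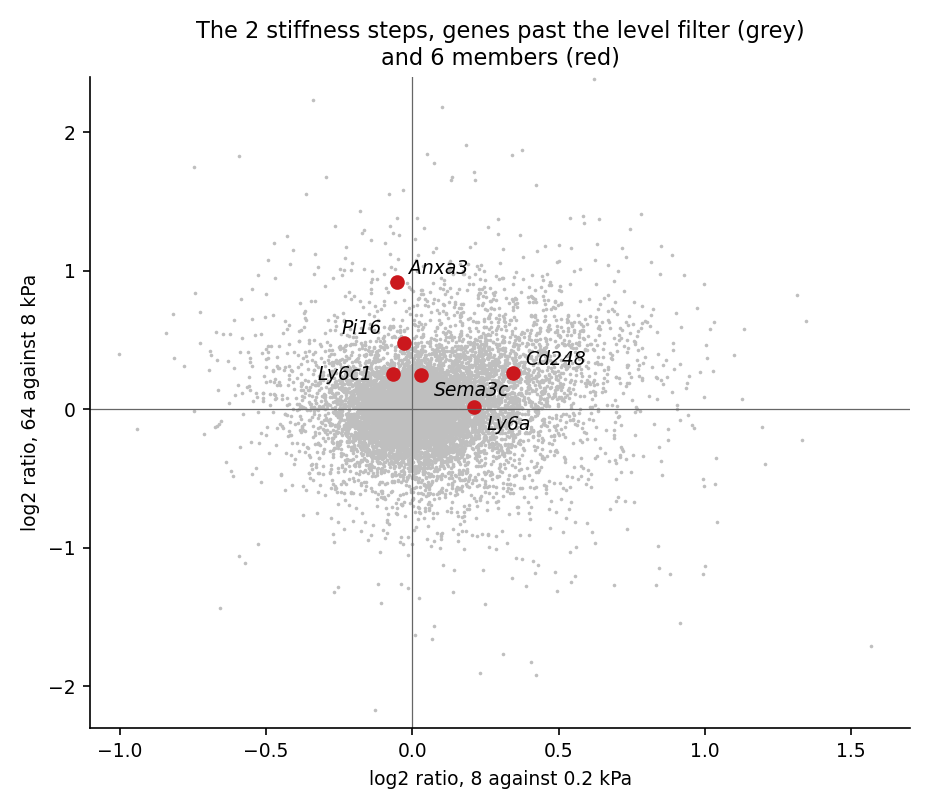
Log2 ratio between 64 and 8 kPa (vertical axis) against that between 8 and 0.2 kPa (horizontal axis) for the 11873 genes compared (grey, with 4 genes outside the axes) and 6 markers (red). Anxa3 lies high and near 0 on the horizontal axis, Ly6a lies near 0 on the vertical axis, and Cd248 is positive on both.

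For each marker, the 2 genes with the most similar pair of steps over the 3 libraries were picked from 9558 named genes with a mean of at least 200. For Anxa3 the closest was Crim1, a transmembrane protein that binds bone morphogenetic proteins, at a distance of 0.031 on the log2 scale. It had 1378 normalized counts on soft, 1322 on intermediate and 2441 on stiff plates. For Cd248 they were Dock6 and Ccl9, and for Pi16 they were Pygl and Rps6ka1. Ly6a was closest to Abl2 and Dhrs13, Ly6c1 to Crebl2 and Lims2, and Sema3c to Wars and Nuak1. The distances for the other 5 markers were between 0.00036 and 0.018.

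Other genes that mark Pi16+ and Dpp4+ progenitors were then examined, from a list of 30. Of these, 25 had a mean of at least 50, and Smpd3, Il33, Limch1, Opcml and Stmn4 did not. Between stiff and soft plates 8 were higher by at least 0.5 and 1 was lower, where the shares of all genes are 11.8% and 3.77%. The median of the 25 was 0.21, beside 0.0049 for all genes compared. As deposited, 18 were higher and 7 lower, where 51.1% of all genes were higher, and with scaling by total reads or the upper quartile 14 were higher and 11 lower, as Mfap5, Pcolce2, Has1 and Axin2 changed sign and the median of all genes moved to -0.05.

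The higher genes were Creb5, Fn1, Klf2, Emilin2, Klf4, Uchl1, Pcsk6 and Fbn1. Creb5, a transcription factor, had 110 normalized counts on soft, 156 on intermediate and 284 on stiff plates, with a ratio of 1.36 (1.05 to 1.71). Fn1, which encodes fibronectin, had a ratio of 1.08, and the fibrillin gene Fbn1 one of 0.55. The transcription factors Klf2 and Klf4 had ratios of 0.98 and 0.77. Cd34, a sialomucin shared by progenitor fibroblasts and telocytes, had 235, 242 and 318 normalized counts and a ratio of 0.44 (0.19 to 0.69).

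Other genes of that list had smaller or negative ratios. Mfap5 (0.05) and Pcolce2 (0.02), matrix-associated proteins abundant in these fibroblasts, and the complement regulator Cd55 (0.12) lay near 0. The Wnt ligand Wnt2 (0.21) and Bmp7 (0.23), which mark the Dpp4+ progenitors of fat, had ratios near that of Ly6a, although the interval of Bmp7, -0.21 to 0.67, held 0. Igfbp5, an IGF-binding protein, was the lowest at -0.85 (-0.91 to -0.78), with 5505 normalized counts on soft, 4541 on intermediate and 3062 on stiff plates. Sfrp4 (-0.43) and Clec3b (-0.30) were lower too, although the interval of Clec3b, -0.67 to 0.05, held 0.

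**Figure D4:**
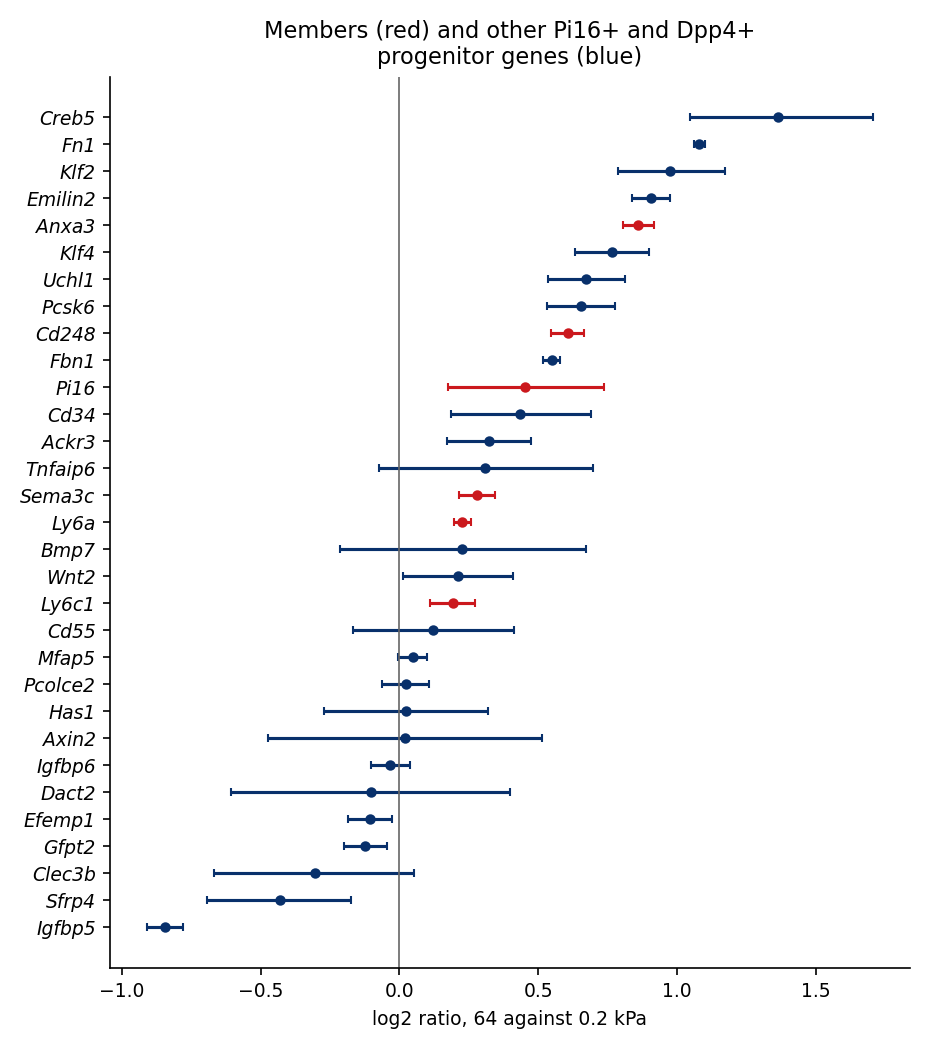
Log2 ratios between 64 and 0.2 kPa (horizontal axis) of the 6 markers (red) and 25 other Pi16+ and Dpp4+ progenitor genes (blue), as points with exact 95% counting intervals, in order of the ratio. The ratios run from -0.85 for Igfbp5 to 1.36 for Creb5.

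Genes of the states that follow on progenitors were counted beside them. Of 15 genes of Col15a1+ fibroblasts and committed preadipocytes, all had a mean of at least 50. Between stiff and soft plates 5 of them were higher by at least 0.5 and 1 was lower, against 11.8% and 3.77% of all genes compared, with a median of 0.18, beside 0.0049. The basement membrane genes Hspg2 (1.71) and Col4a2 (1.08) were the highest, and Col15a1 itself had 0.21. Penk, which encodes an opioid peptide precursor, was the lowest at -1.50. The preadipocyte regulators Pparg (-0.16) and Cebpa (-0.05) differed little, while Cd36, from the same list, had 0.76. Of the 15, 9 had a ratio above 0 and 6 below it. Of 15 surface and stem cell genes of stromal cells, 13 could be compared, with a median of 0.07. By at least 0.5, 3 of them were higher and 1 lower, against 11.8% and 3.77% of all genes compared. Nes was the highest (2.19) and Nt5e, which encodes CD73, the lowest (-0.92). Thy1 (0.37) was higher and Pdgfra (-0.20) lower on stiff plates.

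By comparison, 12 genes of myofibroblasts, the contractile state that fibroblasts take on under tension, had a stiff to soft median of 1.46, beside 0.0049 for all genes compared. By at least 0.5, 9 of them were higher and 1 lower, against 11.8% and 3.77% of all genes. Past 1 were 7 of the 12, against 3.6% of all genes in either direction. They were Actg2 (2.28), Acta2 (2.24), Lmod1 (2.18), Myl9 (2.10), Tagln (2.04), Cnn1 (1.89) and Tpm2 (1.02), most of them genes of the contractile apparatus. Cthrc1 (-0.66) was the lowest. Anxa3, the marker that differed most, was thus below that median, and the other 5 were lower still.

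The family of each marker was set beside it. Of 12 annexins 9 could be compared. The 8 other than Anxa3 had ratios between -0.20 (Anxa8) and 0.23 (Anxa2), with a median of 0.06. None of the 8 reached 0.5 in size, against 15.6% of all genes, and Anxa3 had 0.86. Anxa2 and Anxa1, at 31055 and 19468 normalized counts on average, were more abundant in reads than Anxa3, at 4912.

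Pi16 and its relatives with a CAP domain went different ways. Pi15, the closest namesake, had 3812 normalized counts on soft, 3373 on intermediate and 1829 on stiff plates, with a ratio of -1.06 (-1.14 to -0.98). Crispld2 (-0.70) was lower too, while Glipr1 (0.48) was higher and Glipr2 (0.07) near 0. Crispld1, with a mean of 48.3, fell short of the level filter and had 66, 58 and 22 reads.

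Sema3c was the most abundant class 3 semaphorin in reads, with 4052 normalized counts on average, beside 299 for Sema3f, the next. Sema3e (1.09) and Sema3b (0.72) had higher ratios than Sema3c, whereas Sema3a (-0.11) and Sema3d (-0.02) did not. Among the receptors of the family Plxnd1 (0.82), Plxna1 (0.82), Plxna2 (0.81) and Nrp1 (0.55) were higher on stiff plates by at least 0.5, and Nrp2 (0.14) was not. Without Sema3c, 6 of 12 semaphorin and receptor genes were higher by at least 0.5 and 0 lower, against 11.8% and 3.77% of all genes compared.

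Cd248 belongs to a small family of lectin-domain proteins. Cd93, a relative found on endothelial and myeloid cells, had a ratio of 1.26, Thbd one of 0.15 and Clec14a one of -0.16. The proteins that endosialin binds include fibronectin and collagens, and Fn1 (1.08), Col1a1 (0.95) and Col4a1 (0.77) had larger ratios than Cd248, while the ligand Lgals3bp (0.16) had a smaller one. The endothelial ligand Mmrn2 had 0, 4 and 0 reads.

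Of the 8 relatives of Dpp4 examined, 6 could be compared. Dpp10 had no read and Dpp6 had 4, 3 and 4, and like Dpp4, at 1, 0 and 2 reads, they fell short of the level filter. Fap, the fibroblast activation protein and nearest relative of Dpp4, had 156 normalized counts on soft, 162 on intermediate and 109 on stiff plates, with a ratio of -0.52 (-0.89 to -0.15). The intracellular peptidases Dpp8 (-0.08) and Dpp9 (0.46) and the related Prep (0.36) did not reach 0.5 in size.

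Only 4 of the 19 genes listed for the Ly6 cluster could be compared. Ly6e, next to Ly6a, had 6187 normalized counts on soft, 7887 on intermediate and 7439 on stiff plates, and like Ly6a it was lowest on soft plates. Its ratio was 0.35 for intermediate against soft, and -0.08 for stiff against intermediate. Lynx1 differed by -0.04 between stiff and soft. No read was counted for Ly6c2, Ly6g, Ly6l, Ly6g2 and Lypd2, and Ly6i, 86.4% identical to Ly6a over the coding sequence, had 8, 6 and 6 reads.

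Ly6a is known to respond to interferon, and interferon response genes were examined beside it. All 14 of the 16 that could be compared were higher on intermediate than on soft plates, as were 53.5% of all genes compared, with a median of 0.49, beside 0.012. All 14 were lower on stiff than on intermediate plates, where 51.1% of all genes were higher, with a median of -0.67, beside 0.0061. Ifit3 had 436 normalized counts on soft, 570.3 on intermediate and 235 on stiff plates. Between stiff and soft plates 10 of the 14 were lower and 4 higher (12 and 2 with scaling by total reads or the upper quartile), with a median of -0.24, where 51.1% of all genes were higher. They ran from -0.92 (Usp18) to 0.23 (Oas1a). The ratios of Ly6a for the same comparisons were 0.21, 0.02 and 0.23, and the part of interferon in them was not tested.

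**Figure D5:**
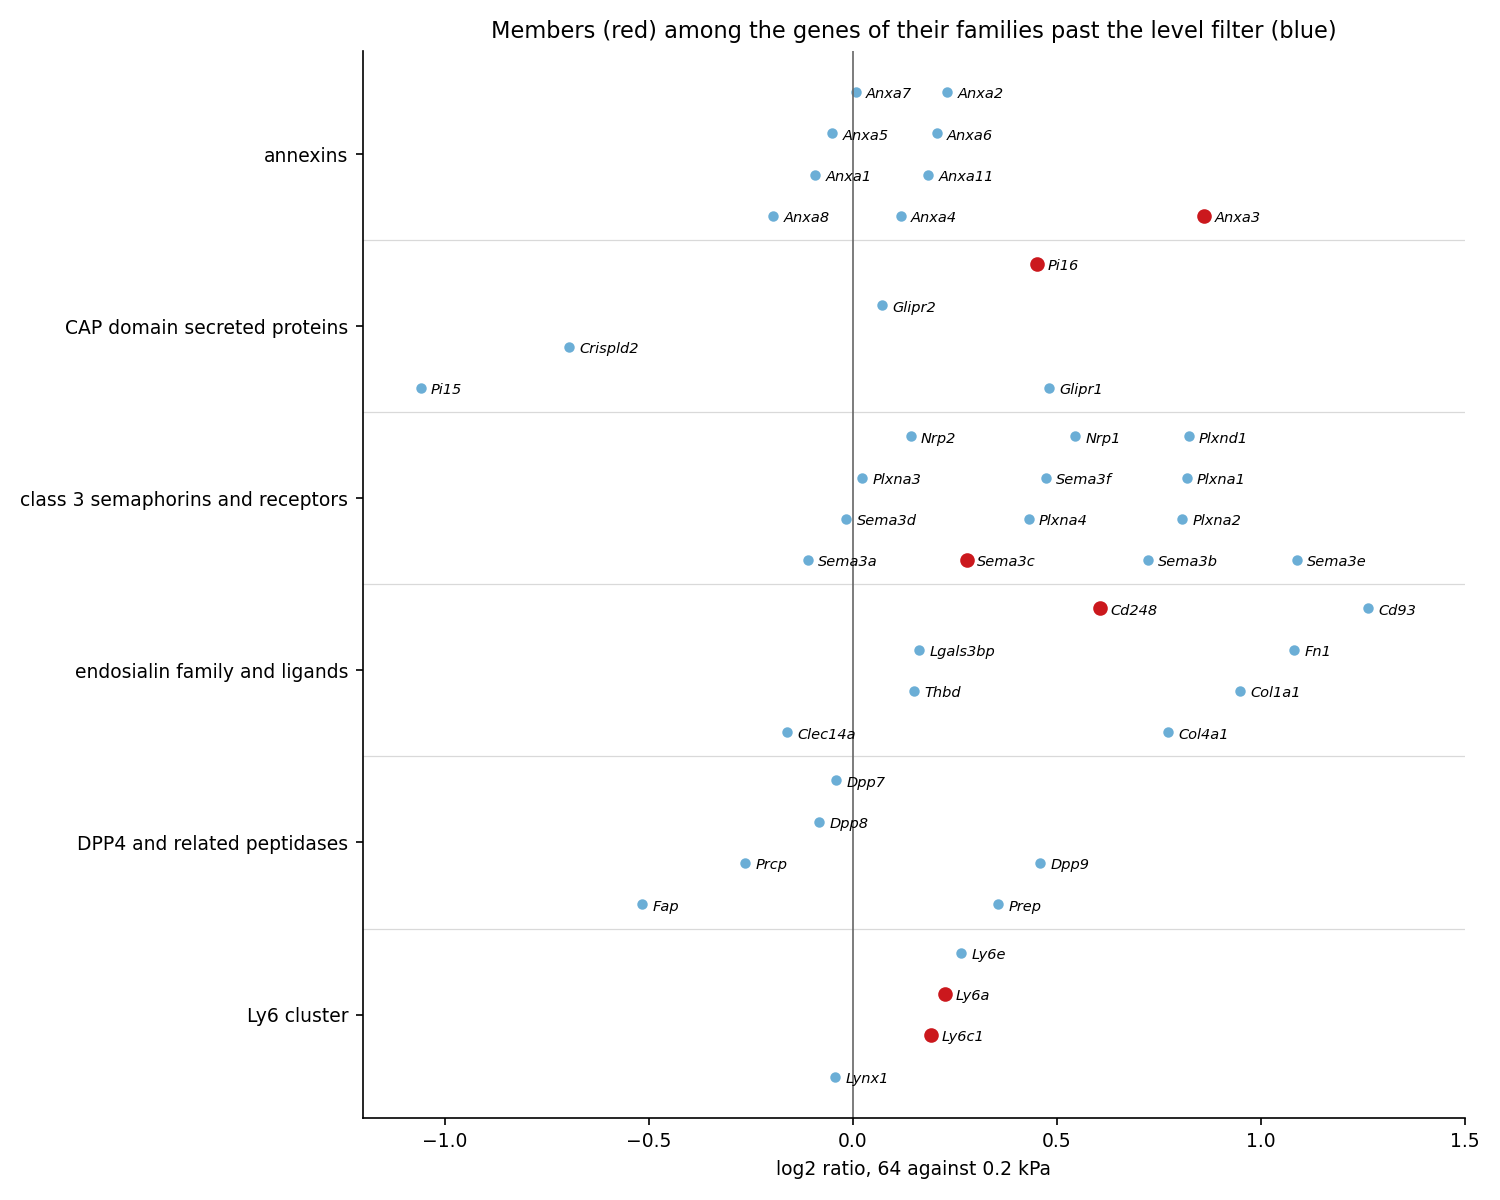
Log2 ratios between 64 and 0.2 kPa (horizontal axis) of the markers (red) and of the genes of their families that were compared (blue), 1 row per family, with points spread vertically for legibility. Anxa3 lies at 0.86 and the other annexins end at 0.23, and Pi16 (0.45) and Pi15 (-1.06) lie on opposite sides of 0.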

How the data were processed

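RNA from tdTomato-sorted mouse synovial cells was sequenced as stranded mRNA libraries, 1 per plate stiffness. The 3 deposited files hold the same table. Its signal values are gene counts that the authors divided by 1 size factor per library. Per the submitters' processing notes, bcl2fastq 2.20.0, STAR 2.7.9a, featureCounts of Subread 2.0.1 and DESeq2 1.34.0 were used with build GRCm39, and the annotation is not given in the sources used here. In each column 100.0% of the values above 0 were whole multiples of the smallest one, within 1e-06 reads, so whole reads were recovered by division. Total reads per library were 25487064 to 28081600. No test across genes was made, since each level has 1 library, and for the same reason intervals cover counting error only. Amplified reads are not independent molecules, so the intervals may be too narrow even for that error.

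Log2 ratios used a pseudocount of 1, which understates the difference of low genes, and genes with a mean of at least 50. Positions and lengths are those of GENCODE vM39 (GRCm39), matched by symbol or Ensembl identifier for 11699 of the 11873 genes compared. Coding sequences were aligned globally with Biopython 1.88. Named genes are all markers, the genes of each list, other than cell type markers, past a log2 ratio of 1 or at its ends, and the 2 genes most like each marker. One of the latter is not reported here. Other genes from the lists were named after their values had been seen. The markers and lists were chosen with earlier results of these data known. Alternatives were pseudocounts of 0.1 and 10, no minimum mean, minimum means of 10 and 200, scaling by total reads, the upper quartile or TMM (edgeR 4.0.16), a local linear fit on length and GC content over the 300 nearest genes, and Ly6c1 summed with Ly6c2. Counting, intervals and the local fit were tested on simulated data. Scripts ran under R 4.3.3 and Python 3.11.15 with scipy 1.17.1, matplotlib 3.10.9, pandas 2.3.3 and numpy 2.4.6.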

Additional observations from a re-analysis of the deposited data

How the results depend on the processing

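Each level had 1 library, so no replicate could be left out. No paired analysis was possible because each group has 1 sample. Of 54 counts of markers past a threshold under the alternatives, 49 stayed within 1.5 times the main count. Most of these were counts of 0 that stayed at 0. The minimum means of 10 and 200 could change no count, since the same 6 markers passed them. Without a filter on low values Dpp4, with 1, 0 and 2 reads, entered: 1 marker then passed 0.5 and 1 passed 1 between intermediate and soft (13.2% and 6.42% of all genes), and 2 passed 0.5 and 1 passed 1 between stiff and intermediate (14.3% and 6.87%). Between stiff and soft 3 of 7 then passed 0.5 (15.9%) and 0 passed 1 (10.3%). With the trend of length and GC content subtracted, 1 marker in place of 2 passed 0.5 between stiff and soft, because Cd248 moved to 0.47, and the share of all genes went from 15.6% to 11.8%. Of 108 alternative values of the 6 markers compared, leaving out the sum of Ly6c1 and Ly6c2, which equals Ly6c1, 95 stayed inside their counting intervals, 13 left them, and none of the values past 0.5 reversed. Between stiff and soft the 6 markers compared stayed above 0 under all alternatives. Ratios near 0 changed sign for Ly6a between stiff and intermediate under scaling by total reads or by the upper quartile, and between intermediate and soft for Sema3c (-0.0045) under the upper quartile and for Anxa3 (0.0087) with the trend subtracted. Depth limits any statement on Dpp4 and, through its wide intervals, on the size of the Pi16 difference.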

Other observations

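The expressed protein-coding genes next to each marker on its chromosome were also read out, with no test, since each level has 1 library. Cd248 lies between Rin1, 8.415 kb away with a stiff to soft log2 ratio of 0.64, and Tmem151a, 0.145 kb away with -0.08. Pi16 lies between BC004004 (-0.13) and Mtch1 (-0.09), at 3.62 and 1.48 kb and both below 0, where Pi16 had 0.45. Sema3c lies between Hgf, 951 kb away with -0.56, and Cd36, the fatty acid transporter, 50.8 kb away with 0.76. Dpp4 lies between Psmd14, 528 kb away with 0.02, and Fap, 88.7 kb away with -0.52. Anxa3 lies between Mrpl1, 526 kb away with -0.10, and Bmp2k, 151 kb away with 0.16. Ly6a and Ly6c1 are next to each other at 46.0 kb, with Ly6e (0.27) 16.4 kb beyond Ly6a and Zfp41 (-0.24) 567 kb beyond Ly6c1.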
